A study of Mus musculus with 51 samples.

Results

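The comparison described here is the loss of FoxA1 and FoxA2 from mouse hepatocytes that still have FoxA3. It sets 4 libraries labelled FoxA1/A2 Cre alfp against 3 labelled FoxA1/A2 lox, all of them RNA-seq of hepatocytes. The members are the genes with an RPKM (reads per kilobase of gene, scaled to the size of the library) of at least 1 in at least 3 of these 7 libraries, which were 10846 of the 33773 gene symbols in the matrix. The minimum left 334 genes just inside, at that level in exactly 3 libraries (median of their mean RPKM 1.01), and 391 just outside, in exactly 2 (median 0.861), while 9455 of the members reached it in all 7. The series holds 51 samples, of which 21 are RNA libraries, and asks what hepatocytes express without FoxA factors. The lox mice carry floxed Foxa1 and Foxa2 alleles with no deletion. The Cre alfp mice carry the Cre transgene alfp, by background a Cre under albumin and alpha-fetoprotein control sequences that acts in the liver from embryonic life. Neither group lacks Foxa3, and the sources used here give no age or strain for either and do not say whether the lox mice carried any Cre. Another 8 libraries enter 1 comparison below: 4 FoxA triple null and 4 FoxA3 null, from floxed mice without Foxa3 that were given, as adults, adeno-associated virus with Cre (triple null) or GFP (FoxA3 null), the Cre under a hepatocyte promoter (Tbg). Labels do not say that libraries came from separate animals, so p-values measure the spread between these samples, which may be technical.

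FoxA proteins are forkhead transcription factors that bind DNA in closed chromatin and open it for other factors. In liver they help to specify the tissue in the embryo and, in the adult, occupy enhancers near many hepatocyte genes together with nuclear receptors and HNF4a. They have been tied to metabolic control by glucagon and glucocorticoids, to bile acid handling and to sex differences in liver expression, and the 3 factors recognise near-identical DNA motifs.

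The 7 libraries were alike in depth within a factor of 1.82 (low RPKM values step by a constant that gives each library's relative depth; absolute depth is unknown), and across tested genes they correlated at 0.957 to 0.976 within and 0.933 to 0.961 between groups. By their transcripts all 7 came from males: Ddx3y, a Y-linked helicase, was at 17.1 to 21.4 RPKM and Xist, the X-inactivation RNA of female cells, at 0.0347 to 0.316. The hepatocyte markers were present in both groups, with 18 of 18 tested, none past the test and a median difference of -0.02 on the log2 scale. Libraries differed in clock phase inside both groups. Dbp, a clock output gene, was at 1.7, 5.91 and 175 RPKM in lox and 203, 2.88, 63.7 and 342 in Cre alfp, and Arntl, a core clock activator, was at 8.59, 5.45 and 0.329 in lox and 1.29, 8.14, 3.81 and 0.175 in Cre alfp. Lox 3 thus stood with Cre alfp 4 and lox 1 and 2 with Cre alfp 2. None of the 24 clock genes tested was called by limma, and 2 had an unadjusted p under 0.05. With that phase as a covariate, an alternative added after the data were seen, the whole comparison gave 185 calls, 156 of them shared with the fit used here.

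The targeted genes followed their labels. Foxa1 was at 7.25, 8.21 and 4.71 RPKM in lox and at 1.31, 1.14, 1.34 and 1.16 in Cre alfp. Foxa2 was at 6.84, 19.2 and 11.3 RPKM in lox and at 1.12, 1, 1.26 and 0.991 in Cre alfp. For neither gene did the groups overlap. Relative to the lox mean, 18.4% of the Foxa1 signal and 8.78% of the Foxa2 signal remained; which part of each transcript carries it cannot be read from these gene-level values. On the log2(RPKM + 1) scale Foxa1 fell by 1.76 (SE 0.17, adjusted p = 0.00316) and Foxa2 by 2.58 (SE 0.29, adjusted p = 0.00525). Foxa3, the remaining factor, was at 29.6, 19 and 26.3 RPKM in lox and 34.5, 30.1, 31.9 and 27.7 in Cre alfp, so the groups overlapped, and its difference of 0.32 (SE 0.16, adjusted p = 0.293) did not pass the test.

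At an adjusted p under 0.05 (Benjamini-Hochberg, over all tested genes) and an absolute log2 difference of at least 1, 182 of 10846 genes were called, 1.68% of those tested. Of these, 104 were higher in Cre alfp (0.959% of tested genes, median difference 1.47) and 78 were lower (0.719%, median -1.69). With no minimum difference, 380 genes passed, and 2317 (21.4%) had an unadjusted p under 0.05. The median difference over all tested genes was 0.02 and only 49 called genes moved by 2 or more on the log2 scale, 27 up and 22 down. In all 182 called genes the 7 libraries separated without overlap, as they did in 20.1% of the tested genes. The RPKM minimum was met through Cre alfp libraries only by 35 of the higher genes and through lox libraries only by 20 of the lower genes, which therefore had to differ; the other 127 met it in both groups. The count rested in part on single libraries: it was 77 without lox 1, 97 without lox 2, 114 without Cre alfp 1 and 116 without Cre alfp 3, and the share of lower genes was 42.9% in all 7 but 29.9% without lox 1 or without lox 2. Of the 58 called genes named by rule, 27 stayed called without each library in turn, and 4 (Enho, Asns, Adrb3 and Gstp2) could not be tested without a lox library. Of 14 further called genes given below as list members or neighbours, 2 stayed called without each library in turn and 11 lost the call without at least 1.

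**Figure D1:**
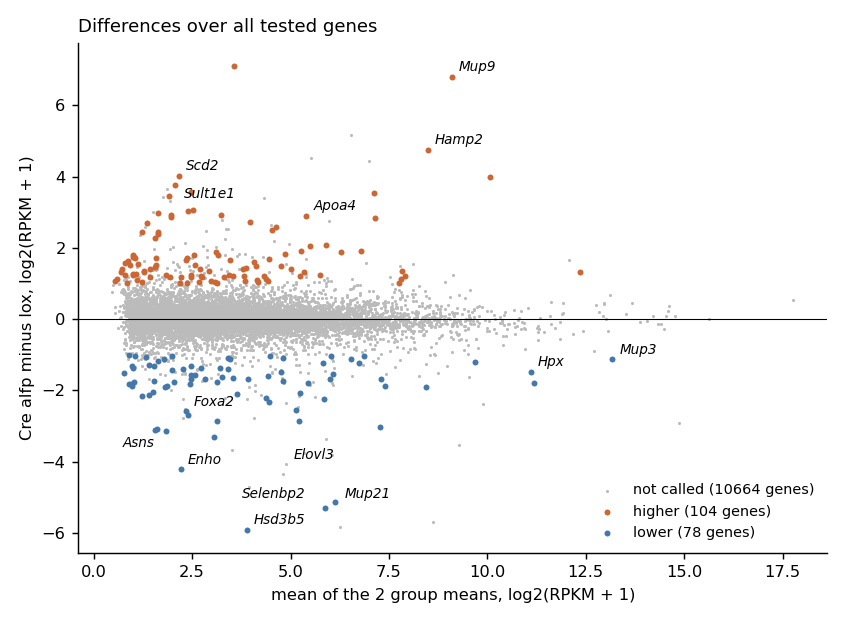
Difference between Cre alfp and lox (vertical axis, log2(RPKM + 1)) against the mean level (horizontal axis) for all tested genes. Most genes lie near 0, with 104 called higher (orange) and 78 called lower (blue); Hsd3b5 and Selenbp2 are at the bottom, Mup9 and Hamp2 near the top.

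**Figure D2:**
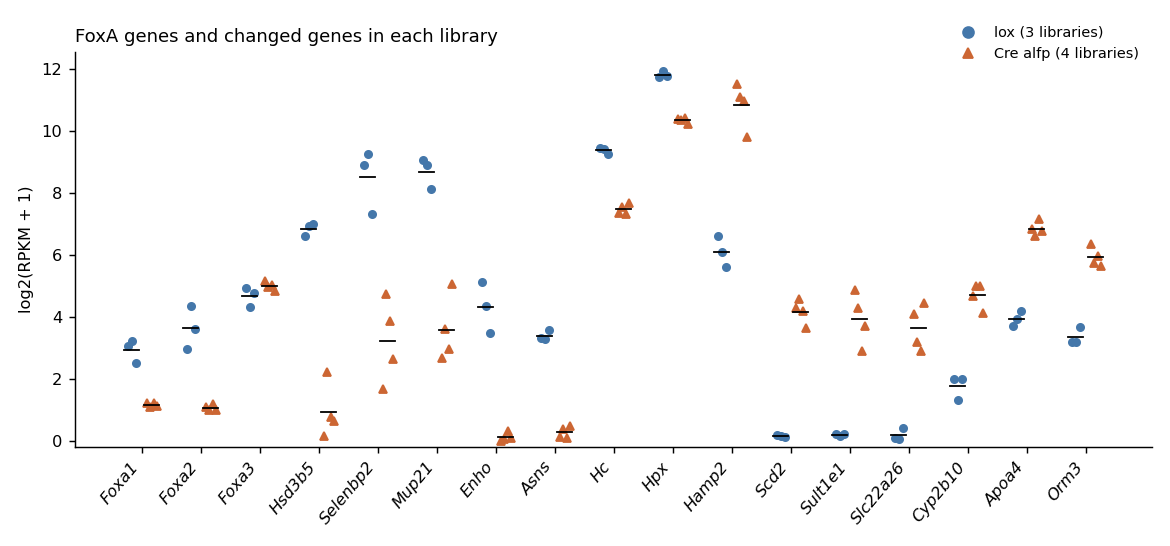
Level of the FoxA genes and of changed genes in each library (vertical axis, log2(RPKM + 1); circles are 3 lox, triangles 4 Cre alfp libraries, bars are group means). Foxa1 and Foxa2 are low in Cre alfp and Foxa3 is not, and in every other gene shown the groups do not overlap.

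Among the deepest losses were genes of the male liver. Hsd3b5, a steroid dehydrogenase typical of male mouse liver, was at 96.4, 121 and 127 RPKM in lox and at 0.0944, 3.62, 0.703 and 0.552 in Cre alfp. All lox libraries were thus far above all Cre alfp libraries, with means of 115 ± 16.2 (SD, n = 3) and 1.24 ± 1.61 (SD, n = 4), a ratio of 92.5. Its difference of -5.91 (SE 0.45, adjusted p = 0.00108) was the lowest of all called genes and lay between -6.34 and -5.64 without any 1 library. Selenbp2, which encodes a selenium-binding protein and is also male-biased, was at 484, 617 and 160.1 RPKM in lox and 2.16, 25.6, 13.5 and 5.25 in Cre alfp. Lox 3 was the lowest of its group but still above every Cre alfp library, and the means differed by a factor of 36.2 (difference -5.29, SE 0.78, adjusted p = 0.016). In FoxA3 null, where Foxa1 and Foxa2 are intact, Selenbp2 was at 9.49 to 20.7 RPKM, within the Cre alfp range and below lox. Adjusted p for Selenbp2 was 0.0838 without lox 1 and 0.0721 without lox 2, at differences of -5.08 and -4.90. Mup21, a male-biased urinary protein gene, was at 539, 475 and 279 RPKM in lox and 5.39, 11.1, 6.76 and 32.5 in Cre alfp (difference -5.13, SE 0.56, adjusted p = 0.00525).

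The promoters of Hsd3b5 and Selenbp2 are shown because they lead the loss, and that of Mup9 because it had the largest rise among the named genes on the log2 scale (values below). Each run is the 250 bases before the transcription start in RefSeq, build GRCm38.p6, 5′ to 3′ on the strand of the gene; capitals mark a match to any of 4 FoxA-type motifs searched on both strands, either TGTTTAC or TGTTTGC or TATTTAC or TATTTGC. Hsd3b5 lies on the minus strand at chr3:98645535-98645784, Selenbp2 on the plus strand at chr3:94693323-94693572 and Mup9 on the minus strand at chr4:60421953-60422202.
Hsd3b5: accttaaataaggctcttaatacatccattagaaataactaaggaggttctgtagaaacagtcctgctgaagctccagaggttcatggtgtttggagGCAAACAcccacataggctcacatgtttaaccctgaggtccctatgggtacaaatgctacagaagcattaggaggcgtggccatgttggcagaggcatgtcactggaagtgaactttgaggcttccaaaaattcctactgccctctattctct
Selenbp2: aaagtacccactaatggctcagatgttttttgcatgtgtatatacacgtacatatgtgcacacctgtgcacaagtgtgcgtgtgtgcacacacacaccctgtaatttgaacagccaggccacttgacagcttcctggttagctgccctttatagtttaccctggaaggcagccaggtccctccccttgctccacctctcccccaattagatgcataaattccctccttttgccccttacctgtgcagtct
Mup9: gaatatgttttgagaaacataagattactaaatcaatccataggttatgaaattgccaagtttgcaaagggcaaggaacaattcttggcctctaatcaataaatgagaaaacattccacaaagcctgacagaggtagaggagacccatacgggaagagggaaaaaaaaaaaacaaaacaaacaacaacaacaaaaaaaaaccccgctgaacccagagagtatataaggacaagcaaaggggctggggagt
The window of Hsd3b5 held 1 match, GCAAACA as read on its strand (the reverse complement of TGTTTGC), which begins 153 bases before the start. Neither of the other windows held any of these letters. Any of the 4 motifs occurred in 11.9% of all 32851 promoter windows of this length, in 753 of 7208 tested genes with a window (10.4%), in 14 of 66 higher genes (21.2%) and in 10 of 58 lower genes (17.2%); a match is a string of letters and no measure of binding.

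Across the list of male-biased liver genes, 9 of 35 tested members were called lower and 1 higher, against 0.719% and 0.959% of all tested genes. Gstp2 and Scara5 among the 9 met the RPKM minimum through lox only and had to differ; of the 31 members that met it in both groups, 7 were called lower and 1 higher. The median over all 37 in the matrix was -0.53, against 0.02 over all tested genes. Besides the 3 above, the lower members were Gstp1, Gstp2, Mup3, C6, Susd4 and Scara5. Mup21 and Mup3 are the 2 lower called genes of the major urinary protein family. The 8 higher called genes of that family, given below, are not in this list. Members of the list were chosen with earlier results of these data known, so its count against all tested genes is not an even one. Gstp1, a glutathione transferase more abundant in males, was at 1262, 1314 and 1204 RPKM in lox and 380, 780.4, 609.7 and 479 in Cre alfp (difference -1.21, SE 0.23, adjusted p = 0.0366). Its neighbour Gstp2, whose sequence is close to that of Gstp1 and may share its reads, was at 2.1, 5.41 and 8.65 RPKM in lox and 0.109 to 0.676 in Cre alfp (difference -2.05, adjusted p = 0.028). Susd4, a complement regulator, went from 7.27 to 9.93 RPKM in lox to 1.38 to 4.24 in Cre alfp (difference -1.56, adjusted p = 0.027). Scara5, a ferritin receptor, was at 1.25, 4.08 and 3.75 RPKM in lox and at no more than 0.086 in Cre alfp (difference -1.88, adjusted p = 0.0153). The list did not move as 1 block. Elovl3, a fatty acid elongase of male liver, was at 417, 270.0 and 15.1 RPKM in lox and 0.779, 46.7, 13.5 and 1.25 in Cre alfp, so lox 3 lay below Cre alfp 2 (difference -4.07, SE 1.50, adjusted p = 0.179). Cyp4a12a, a male-biased arachidonic acid hydroxylase, had values of 157, 158 and 34.7 RPKM in lox and 152 to 189 in Cre alfp (difference 0.79, adjusted p = 0.419). Leaving out 1 library changed the number of lower members to between 2 (without lox 1 or lox 2) and 11 (without Cre alfp 4), and with no filter on low values 2 members were called lower. The call of Susd4 was lost without any 1 library but Cre alfp 4 (adjusted p 0.0593 to 0.125), and that of Scara5 without Cre alfp 1 or 3 (0.0517 to 0.0528). The call of Gstp1 was lost without any 1 of 6 libraries, all but Cre alfp 2 (adjusted p 0.0602 to 0.144), and that of Gstp2 without Cre alfp 1, 2 or 3 (0.0632 to 0.0878).

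Female-biased liver genes that were called moved the other way, while every library had the male pattern of Xist and Y-linked transcripts. Summed over the list, RPKM was 2902 to 9269 in lox and 2768 to 5186 in Cre alfp, so these ranges overlapped. Of 32 tested members, 11 were called higher, against 0.959% of all tested genes, and none lower by limma (1 was lower at an unadjusted p under 0.05, and 1 was called lower without Cre alfp 1). Of the 32, 9 met the RPKM minimum through Cre alfp libraries only, so that those called had to differ. Of the 23 that met it in both groups 4 were called, and over all 50 members in the matrix 38 were above 0, with a median of 0.45, where 51.6% of all tested genes were above 0. Sult1e1, the estrogen sulfotransferase, was at 0.163, 0.102 and 0.156 RPKM in lox and 28.2, 18.6, 6.51 and 12.1 in Cre alfp (difference 3.76, SE 0.41, adjusted p = 0.00525). Slc22a26, an organic anion transporter, was at 0.0402 to 0.326 RPKM in lox and 15.9, 8.01, 6.43 and 20.7 in Cre alfp (difference 3.46, SE 0.37, adjusted p = 0.0051). Both genes met the RPKM minimum through Cre alfp libraries only and had to differ in this direction. The filter did not set the size of that difference.

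Among female-biased cytochrome P450 genes, Cyp2b10 and Cyp2b9 met the RPKM minimum in both groups. Cyp2b13 and Cyp2a22 met it through Cre alfp only and had to differ. Cyp2b10, also the classical target of the xenobiotic receptor CAR, was at 2.93, 1.48 and 3.01 RPKM in lox and 24.8, 31.1, 30.8 and 16.3 in Cre alfp (difference 2.93, SE 0.27, adjusted p = 0.00252). Cyp2b13 was at 0.041, 0.00237 and 0.246 RPKM in lox and 15.3, 2.83, 5.66 and 12.7 in Cre alfp (difference 2.99, adjusted p = 0.0216). Cyp2a22 was at 0.294 to 0.735 RPKM in lox and 4.64 to 16.8 in Cre alfp (difference 2.87, adjusted p = 0.0191). Cyp2b9 was at 2.58, 1.53 and 7.4 RPKM in lox and 56.3, 8.23, 17 and 38.1 in Cre alfp, groups that did not overlap but did not pass the test (difference 2.54, SE 0.68, adjusted p = 0.0866). These genes have close paralogs, so part of their reads may be shared. Nr1i3, which encodes CAR, rose from 148, 146 and 156 RPKM to 418, 248, 301 and 362 (difference 1.12, SE 0.18, adjusted p = 0.0213), the 1 called gene of 44 liver transcription factors tested, a share near the 1.68% of all tested genes. Sult3a1, an amine sulfotransferase, was at 0.00534 RPKM or 0 in lox and 3.35 to 5.73 in Cre alfp (difference 2.44, adjusted p = 0.000497). Abcd2, a peroxisomal fatty acid transporter, was at 0.185 to 0.396 RPKM in lox and 3.26 to 13.8 in Cre alfp (difference 2.45, adjusted p = 0.027). The remaining called members were Gstt3 (difference 2.04), Vldlr (2.38), Ppl (1.71) and Tox (1.53). Of the members in this paragraph, Sult3a1, Abcd2 and Vldlr also met the RPKM minimum through Cre alfp only and had to differ.

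Without lox 1 or without lox 2 the higher female-biased members numbered 5, with no filter on low values 4 and with the replicate number as a block 6. Of the named genes in these paragraphs, Nr1i3 lost its call without lox 1, lox 2, Cre alfp 1 or Cre alfp 3 (adjusted p 0.0441 to 0.0973, the lowest with a difference that rounds to 1.00 but missed the minimum), Cyp2b13 without lox 1, lox 2 or Cre alfp 3 (adjusted p 0.0565 to 0.0973), Cyp2a22 without lox 1 or 2 (0.0767 to 0.0881), Abcd2 without any 1 lox library (0.0657 to 0.107), Tox without any 1 of 5 libraries, all but Cre alfp 2 and 4 (0.0514 to 0.137), Gstt3 without any but lox 3 (0.0699 to 0.164) and Vldlr without lox 1 or 2 (0.0517 to 0.0591). The pituitary hormone that sets liver sex bias acts through its receptor and STAT5. None of 21 tested genes of the growth hormone and IGF axis was called: Ghr, the receptor, had a difference of -0.01 (SE 0.14), Igf1, its main endocrine target, one of 0.15 (SE 0.13), and Socs2, a feedback inhibitor, ranged from 2.09 to 63.8 RPKM within lox alone. At an unadjusted p under 0.05, 2 of the 21 were lower and none higher by limma. Igfals was 1 of these, at 40 to 85.2 RPKM in lox and 28.5 to 38.8 in Cre alfp, without overlap (difference -0.65, SE 0.27, adjusted p = 0.219). Gh itself, named after its values were seen, was listed at 0 in all 3 lox libraries and at 5.29, 6.37, 3.26 and 8.29 RPKM in Cre alfp; none of the 8 libraries from mice without Foxa3 held a value above 0 for it. Which transcript those reads come from was not tested.

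**Figure D3:**
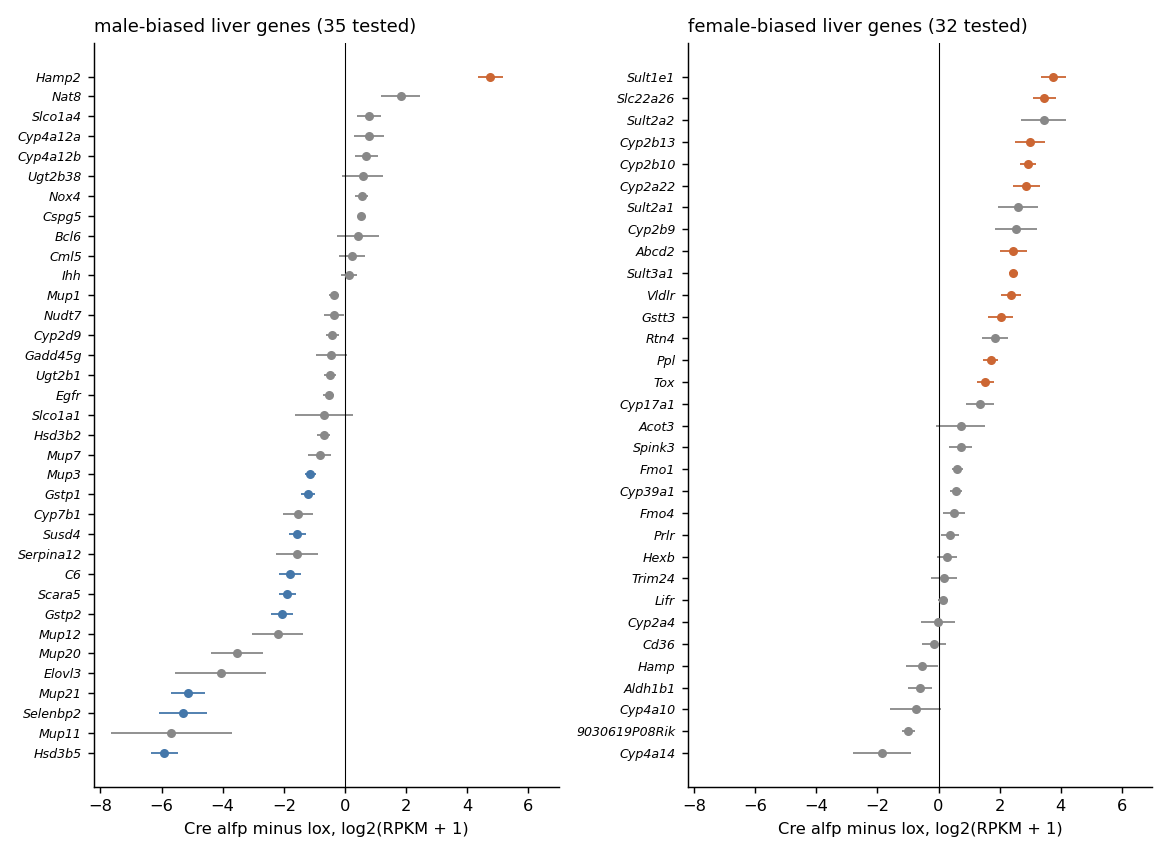
Difference between Cre alfp and lox with its standard error (horizontal axis, log2(RPKM + 1)) for each tested member of the male-biased (left) and female-biased list (right). Called genes are blue (9 male-biased genes lower) or orange (11 female-biased genes and Hamp2 higher), others grey.

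The major urinary proteins, pheromone-binding proteins secreted by male liver in large amounts, changed in both directions. Of 19 tested genes 8 were called higher and 2 lower, against 0.959% and 0.719% of all tested genes. The lower count was 1 without lox 1, lox 2, Cre alfp 1 or Cre alfp 3 and 6 without Cre alfp 4. Mup9, the highest called gene named here, was at 14.2, 15.3 and 554 RPKM in lox and 6699, 7817, 5729.9 and 3699.9 in Cre alfp (difference 6.80, SE 1.20, adjusted p = 0.028). Lox 3 was far above the other lox libraries, and the call was lost without lox 1 or 2 or Cre alfp 1, 2 or 3 (adjusted p 0.064 to 0.116). Mup16 was at 326, 276 and 213 RPKM in lox and 4688, 5547, 4494 and 2806 in Cre alfp (difference 3.98, SE 0.25, adjusted p = 0.000497), and Mup18 at 49, 67.9 and 19 in lox and 524, 591, 469.7 and 347 in Cre alfp (difference 3.53, SE 0.41, adjusted p = 0.00623). Mup3 fell from 15133, 14274 and 11522 RPKM to 5499.9, 8162, 5690.4 and 5789.6 (difference -1.13, SE 0.17, adjusted p = 0.0197), a call that was lost without lox 1 or 2 or Cre alfp 1 or 3 (0.0627 to 0.0973). Mup11 was at 5773, 4993 and 764 RPKM in lox and 12.2, 15.3, 12.5 and 2976 in Cre alfp, and Mup14 at 780.0, 909 and 269 in lox and 1.8, 1.87, 1.2 and 564 in Cre alfp. In both, 3 of the Cre alfp libraries were near 0 and Cre alfp 4 was inside the lox range, and neither passed the test (adjusted p 0.162 and 0.142). The sum over the family was 20372 to 36739.9 RPKM in lox and 31557 to 42585 in Cre alfp, so these ranges overlapped. How reads were divided among these copies is not given in the sources used here, and each single Mup value is uncertain for that reason.

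Several chaperones of the endoplasmic reticulum were lower in Cre alfp. Of 33 tested genes of the endoplasmic reticulum and integrated stress list, 6 were called lower and 2 higher, against 0.719% and 0.959% of all genes. Asns among the lower and Vldlr among the higher met the RPKM minimum through 1 group only; of the 31 that met it in both, 5 were called lower and 1 higher. Without overlap were 57.6% of the list, 15 lower and 4 higher, against 20.1% of all genes, and the median over all 35 in the matrix was -0.59. Manf, a secreted factor made under reticulum stress, was at 326, 343 and 193 RPKM in lox and 64.3, 96.9, 87.9 and 99.6 in Cre alfp (difference -1.68, SE 0.24, adjusted p = 0.0142). Hyou1, a chaperone of the HSP70 family, was at 76, 52.9 and 31.1 RPKM in lox and 11.5, 15.3, 16.5 and 14.8 in Cre alfp (difference -1.73, SE 0.28, adjusted p = 0.0222). Creld2, a disulfide isomerase, was at 196, 138 and 36.7 RPKM in lox and 8.99, 14, 18 and 11.8 in Cre alfp (difference -2.87, SE 0.54, adjusted p = 0.0345). In each of the 3 genes lox 3 was the lowest lox library and still above all Cre alfp libraries. Dnajb11, a co-chaperone, had a difference of -1.24 (adjusted p = 0.026) and Pdia6, a disulfide isomerase, one of -1.11 (adjusted p = 0.0468). Hspa5, the main chaperone of the compartment (BiP), was at 915, 558 and 288 RPKM in lox and 131, 184, 197 and 196 in Cre alfp; the groups did not overlap but the difference of -1.59 (SE 0.37, adjusted p = 0.06) did not pass. Sdf2l1 (difference -2.15, adjusted p = 0.0579), Hsp90b1 (-1.02, 0.083) and Calr (-0.93, 0.0645) had lower values in every Cre alfp library too and did not pass.

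Hspa8, the constitutive HSP70 protein of the cytosol and no member of that list, was at 724, 489 and 239 RPKM in lox and 28.7, 44.7, 41.6 and 143 in Cre alfp (difference -3.04, SE 0.58, adjusted p = 0.037), and Hsph1, its exchange factor, went from 9.82 to 24.9 RPKM to 2.25 to 5.03 (difference -1.76, SE 0.33, adjusted p = 0.035). The stress-induced Hspa1a and Hspa1b were not called, with differences of 0.37 (SE 0.46) and -0.09 (SE 0.68). The stress regulators upstream were not called: Atf4 had a difference of -0.24 (SE 0.18) and Ddit3 one of -0.59 (SE 0.51). Trib3, a pseudokinase target of these regulators, was higher, at 5.11 to 13.7 RPKM against 1.45 to 3.23 (difference 1.80, SE 0.33, adjusted p = 0.0321). These calls depended on single libraries of both groups. Without lox 1 or without lox 2 no gene of the list was called (by limma; in the full comparison those 2 settings still gave 1605 and 1866 genes at an unadjusted p under 0.05), while 2 were lower without Cre alfp 1 or Cre alfp 3 and 12 without lox 3. With no filter on low values 1 was lower and none higher, with the replicate number as a block 1 was lower and 1 higher, and with library weights 13 were lower. Adjusted p without any 1 library that ended a call was 0.0587 to 0.123 for Creld2 (any but lox 3), 0.05 to 0.0859 for Hyou1 (lox 1 and 2, Cre alfp 1, 2 and 3), 0.0561 to 0.174 for Pdia6 (any but lox 3), 0.0783 to 0.15 for Hspa8 (lox 1 and 2, Cre alfp 1, 2 and 3), 0.0647 to 0.0758 for Manf (lox 1 and 2), 0.0777 to 0.113 for Dnajb11 (lox 1 and 2, Cre alfp 1 and 3), 0.056 to 0.106 for Hsph1 (any but lox 3) and 0.0548 to 0.136 for Trib3 (any but Cre alfp 2). In FoxA3 null, the controls of the other background, Creld2 was at 17.2 to 29.2 RPKM, Manf at 90 to 129.9 and Dnajb11 at 52.9 to 80.7, below every lox library. Other chaperones there reached into the lox range, with Hspa5 at 175 to 344 RPKM, Pdia6 at 93.8 to 149.8, Hyou1 at 17.3 to 51.5, Hspa8 at 122 to 530.0 and Hsph1 at 4.66 to 18.1. Trib3 was at 7.22 to 9.29 RPKM in FoxA3 null, above every lox library.

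**Figure D4:**
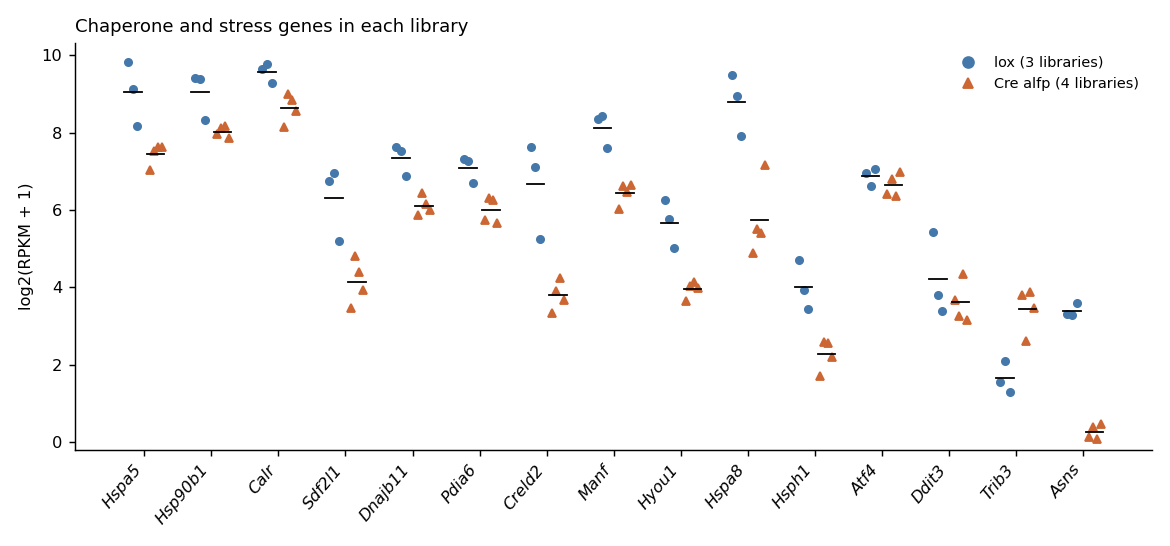
Level of chaperone and stress genes in each library (vertical axis, log2(RPKM + 1); circles are 3 lox, triangles 4 Cre alfp libraries, bars are group means). Lox 1 and 2 are highest for most chaperones, and Atf4 and Ddit3 overlap between the groups.

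Asns, which makes asparagine and is a target of the stress regulator ATF4, is a member of the same list. It was at 8.96, 8.71 and 11 RPKM in lox and at 0.0819, 0.297, 0.0604 and 0.381 in Cre alfp (difference -3.13, SE 0.14, adjusted p = 0.000161), a ratio of the means of 46.5. In FoxA3 null it was at 0.114 to 0.523 RPKM and in triple null at 0.203 to 0.75, so of the 4 groups the lox libraries alone were high. It reached the RPKM minimum through lox only, so it had to differ, and was not tested without a lox library. Promoters of Creld2, Pdia6 and Asns are shown as those of lower members of this list whose windows hold a stress motif; an ATF4-type match is also in windows of Vldlr, a member that rose, and of Sult1e1 and Hao1, not shown. Capitals mark the endoplasmic reticulum stress element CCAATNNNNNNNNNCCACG in Creld2 (plus strand, chr15:88819396-88819645) and Pdia6 (plus strand, chr12:17266339-17266588), and the ATF4-type motif TGATGNAA in Asns (minus strand, chr6:7693210-7693459), each searched on both strands of the 250 bases before the start in RefSeq, build GRCm38.p6.
Creld2: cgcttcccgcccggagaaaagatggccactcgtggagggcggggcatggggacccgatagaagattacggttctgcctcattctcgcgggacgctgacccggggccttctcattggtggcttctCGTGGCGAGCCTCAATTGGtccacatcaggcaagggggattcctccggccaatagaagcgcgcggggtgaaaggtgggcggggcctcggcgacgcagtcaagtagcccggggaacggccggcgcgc
Pdia6: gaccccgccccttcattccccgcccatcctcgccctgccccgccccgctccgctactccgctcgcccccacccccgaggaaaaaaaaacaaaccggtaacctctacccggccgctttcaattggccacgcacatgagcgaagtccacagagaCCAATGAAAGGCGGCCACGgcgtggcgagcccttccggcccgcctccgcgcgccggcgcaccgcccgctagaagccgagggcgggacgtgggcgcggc
Asns: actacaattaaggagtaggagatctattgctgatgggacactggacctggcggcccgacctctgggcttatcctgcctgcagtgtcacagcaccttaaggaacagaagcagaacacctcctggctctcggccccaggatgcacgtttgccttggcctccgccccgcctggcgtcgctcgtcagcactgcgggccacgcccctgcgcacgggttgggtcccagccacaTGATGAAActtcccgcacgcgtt
The match begins 126 bases before the start in Creld2, where it is read from the other strand, 98 bases before it in Pdia6 and 23 before it in Asns. The stress element occurred in 37 of 32851 windows (0.113%), in 0.208% of tested genes with a window, in 2 of 58 lower genes with a window, the 2 shown, and in 0 of 66 higher genes. The ATF4-type motif occurred in 3.45% of all windows, in 2.28% of tested genes, in 3 of the 58 lower and 3 of the 66 higher genes. The stress element contains CCAAT, which alone is in 33.8% of all windows, 41.1% of tested genes, 44.8% of lower genes and 42.4% of higher genes. The STAT5 motif TTCNNNGAA was in 7.02% of all windows, 7.09% of tested genes, 3 of the 58 lower and 5 of the 66 higher genes.

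Several abundant plasma protein genes fell, and for Hpx and Hc the replicates were close. Hpx, which encodes the heme scavenger hemopexin, was at 3455, 3971 and 3564 RPKM in lox and 1341, 1321, 1385 and 1216 in Cre alfp, 35.9% of the lox mean (difference -1.48, SE 0.10, adjusted p = 0.000595). Hc, which encodes a complement component of the terminal pathway, was at 696, 694 and 619 RPKM in lox and 163, 188, 159 and 205 in Cre alfp (difference -1.90, SE 0.12, adjusted p = 0.000497). Hp, the hemoglobin scavenger haptoglobin, was at 4617, 4838 and 3513 RPKM in lox and 934, 1809, 1192 and 1207 in Cre alfp (difference -1.78, SE 0.23, adjusted p = 0.00971). Serpina3n, an acute phase protease inhibitor, was at 115, 125 and 100.3 RPKM in lox and 27.6 to 47.9 in Cre alfp (difference -1.67, SE 0.19, adjusted p = 0.00571). In all 4 genes the groups were far apart relative to their spread. C6, the complement component that follows the Hc product, was at 66.2, 96.9 and 80.6 RPKM in lox and 10.9 to 32.9 in Cre alfp (difference -1.80, adjusted p = 0.0394), and Hgfac, the activator of hepatocyte growth factor, fell to 42 to 48.4 from 83.4 to 101 (difference -1.04, SE 0.10, adjusted p = 0.00356). Other acute phase genes rose. Orm3, an orosomucoid, was at 8.14, 8.09 and 11.7 RPKM in lox and 80.6, 52.6, 62.2 and 48.5 in Cre alfp (difference 2.58, SE 0.20, adjusted p = 0.00143). Il1rn, the interleukin-1 receptor antagonist, was at 0.15 to 0.67 RPKM in lox and 2.58 to 9.87 in Cre alfp (difference 2.28, adjusted p = 0.0269). In FoxA3 null, Hc was at 309 to 446 RPKM and Hgfac at 71.7 to 78, both below every lox library. Il1rn was there at 1.45 to 3.04 RPKM, above every lox library. Hpx, Hp, Serpina3n, C6 and Orm3 there reached into the lox range.

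By list, 3 of 37 acute phase genes tested were called higher and 3 lower, against 0.959% and 0.719% of all tested genes. Il1rn among the higher met the RPKM minimum through Cre alfp only; of the 35 that met it in both groups, 2 were called higher and 3 lower. Without overlap were 35.1% of the 37, against 20.1% of all tested genes. The acute phase calls were 2 higher without lox 1, 2 or 3 or Cre alfp 1 or 3, and 2 lower without lox 1 or 2. Of 39 coagulation and complement genes 2 were called, both lower, and 43.6% were without overlap, 15 lower and 2 higher. That count was 1 without lox 1, lox 2, Cre alfp 2 or Cre alfp 3. The list had a median of -0.28 over the 43 in the matrix, of which 33 were below 0. Of 65 tested secreted proteins 1 was called higher and 1 lower, near the 1.68% of all tested genes, while 36.9% were without overlap, 16 lower and 8 higher. Albumin, Alb, was at 23575 to 27355 RPKM in lox and 18539 to 22769 in Cre alfp (difference -0.29, adjusted p = 0.198), and Ttr, transthyretin, at 6343 to 7000.0 in lox and 7079.6 to 8786 in Cre alfp (difference 0.20, adjusted p = 0.342). The call of Hp was lost without lox 1 or lox 2 (adjusted p 0.0532 to 0.0625). That of C6 was lost without any 1 lox library or Cre alfp 2 or 3 (0.0766 to 0.132). That of Il1rn was lost without any 1 lox library or Cre alfp 1 or 3 (0.0617 to 0.117). That of Hgfac was lost without lox 3, where its difference was -0.99.

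Of 20 tested iron and metallothionein genes 2 were called, both higher, against 0.959% of all tested genes. Hamp2, a hepcidin paralog, was at 97.8, 66.9 and 47.8 RPKM in lox and 2969.7, 2224, 2041 and 897 in Cre alfp, a 28.7-fold higher mean (difference 4.76, SE 0.42, adjusted p = 0.00224). It stands in the male-biased list, where its place is uncertain, and rose against the other called members. Hamp, the main hepcidin gene, was at 4614, 2134 and 8785 RPKM in lox and 1704 to 4501 in Cre alfp, overlapping ranges (difference -0.55, SE 0.52, adjusted p = 0.593). Slc40a1, the iron exporter ferroportin, rose from 9.77 to 17.9 RPKM to 23.7 to 39.2 (difference 1.13, SE 0.23, adjusted p = 0.0452), a call lost without any 1 library but lox 3 (adjusted p 0.054 to 0.153). Alas2, a member of the red cell list and the erythroid form of the first heme synthesis enzyme, was at 79.8, 82.7 and 89.5 RPKM in lox and 9.21, 24.4, 17.4 and 8.62 in Cre alfp (difference -2.54, SE 0.34, adjusted p = 0.0113; 0.0594 without lox 1 and 0.0534 without lox 2). Alad, the next enzyme of the pathway, was named after its values were seen; it was at 133, 134 and 155 RPKM in lox and 475, 408, 385 and 228 in Cre alfp (difference 1.36, SE 0.24, adjusted p = 0.0283; 0.0539 to 0.128 without any 1 library but Cre alfp 4). Other red cell markers differed among themselves: Slc4a1 and Ermap were under 0.1 RPKM in all 7 libraries, Hbb-b1 was higher in Cre alfp (0.476 to 1.01 against 3.25 to 4.75 RPKM, difference 1.46, adjusted p = 0.00583) and Tspan33 lower (5.4 to 11.6 against 1.9 to 2.43, difference -1.69, adjusted p = 0.0141; 0.0508 to 0.0705 without lox 1, lox 2 or Cre alfp 3). In FoxA3 null, Slc40a1 was at 33 to 60.3 RPKM, above every lox library. Alas2 was there at 31.5 to 44.7 RPKM and Tspan33 at 1.76 to 4.57, both below every lox library.

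Enzymes of drug metabolism changed in both directions, 4 higher and 5 lower of 73 tested phase 1 genes and 4 higher and 5 lower of 59 phase 2 genes, against 0.959% higher and 0.719% lower over all genes. Among those that met the RPKM minimum in both groups the counts were 2 higher and 5 lower of 70, and 2 higher and 4 lower of 53. Without lox 1 the counts were 2 higher and 2 lower in each list, without lox 2 they were 2 and 3 in phase 1 and 2 and 1 in phase 2, and without lox 3 they were 4 and 7 in phase 1 and 7 and 2 in phase 2. Lower calls also fell to 2 in phase 1 without Cre alfp 1 and 3 without Cre alfp 3, and in phase 2 to 2 without Cre alfp 1 or 3 and 3 without Cre alfp 2. Aox3, an aldehyde oxidase, was at 141, 114 and 118 RPKM in lox and 22.1, 24.6, 32.2 and 23.6 in Cre alfp (difference -2.24, SE 0.15, adjusted p = 0.000595), and its neighbour Aox1 went from 31.9 to 51.4 to 16.2 to 22.9 (difference -1.09, adjusted p = 0.0252). The carboxylesterase Ces1g was at 37.5, 31 and 41.7 RPKM in lox and 8.42 to 14.4 in Cre alfp (difference -1.59, SE 0.19, adjusted p = 0.00783) and Ces1b at 38.1 to 55.9 in lox and 10.9 to 18.4 in Cre alfp (difference -1.49, adjusted p = 0.0142). In these 4 genes each Cre alfp library was below each lox library. The call of Aox1 was lost without lox 1 or 2 or Cre alfp 1, 2 or 3 (adjusted p 0.0569 to 0.106), and that of Ces1b without lox 1, lox 2 or Cre alfp 1 (0.0517 to 0.0659). Cyp2c70, which makes the muricholic bile acids of mice, was at 351, 237 and 403 RPKM in lox and 72.5, 143, 80 and 67.1 in Cre alfp (difference -1.89, SE 0.30, adjusted p = 0.0202; 0.0659 to 0.0956 without lox 1, Cre alfp 1 or Cre alfp 3). Its paralog Cyp2c69 rose from 0.964, 1.41 and 0.696 RPKM to 24.1, 19.7, 8.77 and 13.8 (difference 3.05, SE 0.32, adjusted p = 0.00474). Among transferases, Gsta2 was at 14.4, 17.3 and 46.4 RPKM in lox and 1.73 to 3.47 in Cre alfp (difference -2.86, adjusted p = 0.012) and Gstm2 at 23.7 to 30.5 in lox and 5.24 to 11.1 in Cre alfp (difference -1.69, adjusted p = 0.00971), while Sult1a1 rose from 133 to 174 to 286 to 432 (difference 1.21, adjusted p = 0.0153). Without lox 2 adjusted p was 0.0517 for Gstm2, and without lox 1 or 2 it was 0.0625 to 0.0678 for Sult1a1. Ugt1a9, a glucuronosyltransferase that shares exons with other Ugt1a genes, was at 58.9, 63 and 122 RPKM in lox and 8.5 to 23.4 in Cre alfp (difference -2.07, adjusted p = 0.037; 0.0576 to 0.103 without any 1 library but Cre alfp 4).

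The lipid lists held calls at a share near the 1.68% of all tested genes. Scd2, a stearoyl-CoA desaturase that adult hepatocytes express little of, was at 0.124, 0.117 and 0.0704 RPKM in lox and 18.6, 22.6, 17.4 and 11.4 in Cre alfp (difference 4.03, SE 0.21, adjusted p = 0.000221), the 1 called gene of 40 tested in fatty acid synthesis, of which 10 had an unadjusted p under 0.05; it met the RPKM minimum through Cre alfp only. Apoa4, an apolipoprotein of triglyceride-rich particles, was at 12.1, 14.1 and 17.3 RPKM in lox and 114, 95.9, 141 and 109 in Cre alfp, a 7.93-fold higher mean (difference 2.90, SE 0.16, adjusted p = 0.000344). In FoxA3 null it was at 54 to 79 RPKM, above every lox library and below every Cre alfp library. Apoa1, in the same gene cluster, was at 8367 to 9794 RPKM in lox and 3019 to 6159 in Cre alfp, without overlap, and did not pass (difference -0.90, SE 0.25, adjusted p = 0.101). Vnn1, a pantetheinase and target of PPARa, was the 1 called of 39 tested fatty acid oxidation genes, 11 of them at an unadjusted p under 0.05 (difference 1.82, SE 0.38, adjusted p = 0.0479), and leaving out any 1 of the 7 libraries ended that call (0.0593 to 0.158). None of 36 bile acid genes tested was called by limma (15 had an unadjusted p under 0.05, and 38.9% were without overlap against 20.1% of all genes), nor any of 21 cholesterol synthesis genes (0 by that measure), whose median was -0.24. Of the bile acid genes, Sult2a1 (0 to 0.0329 RPKM in lox, 0.856 to 14.9 in Cre alfp) was called by limma without Cre alfp 2 (difference 3.17, adjusted p = 0.022). It was also called at a pseudocount of 0.1 and in the fit on 15 libraries. Cyp46a1 was called by limma without lox 3 (-1.97, adjusted p = 0.0326), with library weights and with the clock covariate. Of the named genes that fell, Enho, which encodes the peptide adropin, was at 33.7, 19.5 and 10.2 RPKM in lox and at 0 to 0.233 in Cre alfp (difference -4.21, SE 0.34, adjusted p = 0.00153), and Adrb3, an adrenergic receptor, at 9.86, 13.6 and 3.44 in lox and no more than 0.0733 in Cre alfp (difference -3.09, SE 0.36, adjusted p = 0.00699). Both reached the RPKM minimum through lox only, and Enho was at 0.212 to 0.582 RPKM in FoxA3 null as well. Tsku, a secreted proteoglycan, went from 83.4, 21.8 and 59.7 RPKM to 5.09 to 13.6 (difference -2.34, adjusted p = 0.0451; 0.0913 to 0.153 without lox 1, lox 3 or Cre alfp 1, 2 or 3). Krt23, a keratin, rose from 0.425 to 1.41 RPKM to 18.9, 6.56, 13.1 and 22.9 (difference 3.03, adjusted p = 0.00971; 0.059 without lox 1).

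At 1.68% of all tested genes, a list of this size can hold no called gene, so the absence of calls says little of these lists. There was none for glucose production and use (26 tested), pericentral genes (22), cell cycle (25), interferon response (28), the clock (24) and the growth hormone axis (21), none of which had a call by limma. At an unadjusted p under 0.05 these lists held 7, 10, 3, 6, 2 and 2 genes, in the same order, against 21.4% of all tested genes. Urea cycle and amino acid genes had 1 call of 56, Asns, periportal genes 1 of 19, Apoa4, and the fetal liver list 1 of 6 tested, Scd2; 9 of its 26 members in the matrix, H19, Igf2, Gpc3 and Dlk1 among them, were under 0.1 RPKM in every library. Hnf4a, the central factor of hepatocyte identity, had a difference of -0.01 (SE 0.17) and Cebpa one of 0.47 (SE 0.18). A missed threshold does not show equal levels. Ccnd1, cyclin D1, was at 6.72, 3.9 and 1.03 RPKM in lox and 18.8, 10.6, 18 and 19.6 in Cre alfp without overlap (difference 2.03, SE 0.44, adjusted p = 0.0532), and Ppp1r3b, a glycogen-targeting subunit, at 23.5 to 52 in lox and 3.66 to 13.9 in Cre alfp (difference -2.13, SE 0.48, adjusted p = 0.0582).

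Markers of other liver cell types were mostly below the RPKM minimum. Of the red cell list 3 of 5 tested genes were called, against 1.68% of all tested genes. None was called by limma among 12 Kupffer cell, 14 endothelial, 13 stellate cell and 8 cholangiocyte genes tested, of which 1, 0, 0 and 2 had an unadjusted p under 0.05, against 21.4% of all tested genes. Without Cre alfp 4, which had their lowest Cre alfp values (1.78 and 0.817 RPKM), Aqp1 and Rgs5 were called higher by limma (differences 1.52 and 1.18, adjusted p = 0.0243 and 0.0322). Without lox 3, Spp1 was called lower by limma (difference -1.51, adjusted p = 0.0443). Only 1 lymphocyte and 1 neutrophil or monocyte gene could be tested, and neither passed either threshold. In bulk RNA fewer cells of a type and less RNA per cell cannot be told apart. The Kupffer cell and macrophage list summed to 14.7 to 64 RPKM in lox and 40.2 to 109 in Cre alfp, and 17 of its 18 members in the matrix were above 0, with a median difference of 0.51; Cd5l was at 0.786 to 4.29 RPKM in lox and 2.52 to 11.3 in Cre alfp, and lox 3 was the lowest. Sinusoidal endothelium summed to 55.6 to 92.2 RPKM in lox and 32.9 to 119 in Cre alfp, stellate cells and fibroblasts to 66.8 to 113 and 42.4 to 195, and lymphocytes to 5.3 to 14.3 and 8.15 to 33.9. The part of these shares in the results was not tested. Cholangiocyte markers summed to 117 to 121 RPKM in lox and 146 to 172 in Cre alfp, with 6 of 22, Cftr and Prom1 among them, under 0.1 RPKM in every library.

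Some called genes stood next to each other. Of 172 called genes that could be placed by symbol in the RefSeq gene order (GRCm38.p6), 30 stood in 15 runs of directly adjacent tested genes that were both called. In 14 of these the pair moved the same way, such as Gstp1 and Gstp2, Aox1 and Aox3 (both lower), Evc and Evc2, and Cyp2b10 and Cyp2b13 (both higher). Slc22a26 and Slc22a28 moved in opposite directions: Slc22a28 had a difference of -2.17 (adjusted p = 0.000395). Slc22a26 met the RPKM minimum through Cre alfp only and Slc22a28 through lox only, so both had to differ in these directions. Slc22a28 could not be tested without any 1 lox library. Evc and Evc2 met the RPKM minimum through Cre alfp only and had to differ. Pairs within a gene family may share reads, and how many such runs would arise by chance was not tested.

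The same floxed genes were also deleted in mice without Foxa3, which allows each change to be set beside its size there. Foxa1 was at 6.14 to 10.1 RPKM in FoxA3 null and still at 3.04 to 3.63 in triple null, above the 1.14 to 1.34 of Cre alfp, while Foxa2 was at 11.1 to 20.6 and 0.243 to 0.47, below Cre alfp, so the extent of loss differed as well. Triple null minus FoxA3 null shares no library with the present difference, but its test was fitted on all 15 libraries, these 7 included. The background, the time and the route of deletion (virus in adults against a transgene) all differ between the 2 and cannot be told apart. There, 930 of 11340 genes were called (8.2%). The 182 calls come from a fit on 7 libraries. A fit on 15 gave 274 for Cre alfp against lox, so 930 and 182 are not from like tests. Of the 182 genes called with FoxA3 present, 104 were also called without it (57.1% of these 182 and 11.2% of the 930), 98 of them in the same direction. Hsd3b5 went from 143 RPKM in FoxA3 null to 1.21 in triple null (difference -6.02), against -5.91 with FoxA3 (difference of the 2 differences 0.11, adjusted p = 0.905). Hamp2 rose by 5.36 there, Scd2 by 4.19 and Apoa4 by 3.24, and for none of the 3 did the test of the difference between backgrounds pass (adjusted p = 0.586, 0.758 and 0.389).

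That test, the interaction fitted over 15 libraries, called 783 of 11340 genes (6.9%), and 64 of the 182 genes (35.2%). The 182 were chosen by 1 of the 2 differences that it compares. Their share is raised by that choice and cannot be read against the 6.9%. In 16 of these 64 the shift was larger without FoxA3, in 23 it was smaller with the same sign and in 25 the sign differed. The sign was taken from shifts of any size, some of them near 0 (Asns 0.05, Hspa8 0.06). Of the 182 genes, 6 were called in both comparisons in opposite directions. Hao1, which oxidises glycolate, was at 102, 123 and 120 RPKM in lox and 30.6, 49.2, 42 and 35.2 in Cre alfp (difference -1.55, SE 0.17, adjusted p = 0.00525), but went from 119 to 1.28 RPKM without FoxA3 (difference -5.72; interaction 4.17). Aox3, Serpina3n, Ces1g and Mup3 were of this kind, with differences of -5.50, -5.02, -4.81 and -4.50 without FoxA3. Sult1e1 rose to 1123 RPKM in triple null from 4.29 in FoxA3 null (difference 7.75; interaction -4.00). Csrp3, a muscle LIM protein, and 1500017E21Rik rose with FoxA3 present (27.6, 27 and 20 against 63.5, 68, 60.6 and 59.9 RPKM for Csrp3, difference 1.32, SE 0.13, adjusted p = 0.0036) and fell without it (-4.13 for Csrp3 and -3.04 for 1500017E21Rik). In FoxA3 null, 1500017E21Rik was at 35.8 to 44.4 RPKM, above its 15.6 to 22.9 in lox, and Csrp3 at 18.8 to 42.2, overlapping lox. Apoa1, not called here, had an interaction of 4.33, falling by 5.23 without FoxA3. Enho, Asns, Creld2 and Hspa8 fell against lox: without FoxA3 their differences were -0.43, 0.05, 0.70 and 0.06, and the interaction was called for each. Enho and Asns were already at 0.212 to 0.582 and 0.114 to 0.523 RPKM in FoxA3 null, with little room to fall there. For these 2 genes the interaction was thus fixed once lox was high.

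**Figure D5:**
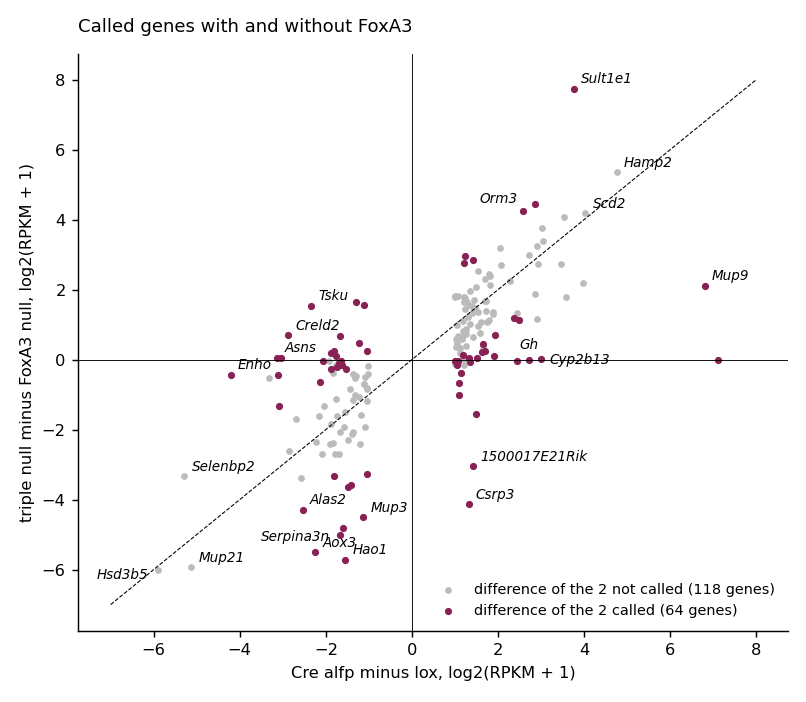
Difference between Cre alfp and lox (horizontal axis) against the difference between triple null and FoxA3 null (vertical axis), both on the log2(RPKM + 1) scale, for the 182 called genes; dark red points are the 64 whose 2 differences were called different and the dashed line marks equal differences. Hsd3b5, Hamp2 and Scd2 lie near the line, while Asns and Enho lie near 0 on the vertical axis.

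The authors' deposited tables hold no direct test of Cre alfp against lox, but the difference of 2 of them (triple null against undeleted controls, and triple null against Cre alfp) gives a log2 fold change for 135 of the 182 genes. Since those tables rest on the same libraries, this checks the scale and not the finding: 134 of 135 had the same sign, with -6.55 for Hsd3b5, -5.18 for Selenbp2, 4.83 for Hamp2 and 7.41 for Scd2 by the authors' deposited tables, the last 1 larger than the 4.03 on the log2(RPKM + 1) scale, which understates changes of low genes. Other values were smaller in size by the authors' deposited tables, with 4.97 for Mup9 (6.80 here) and -1.79 for Hspa8 (-3.04 here). The cause of these gaps was not tested.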

How the data were processed

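Hepatocyte RNA was isolated with TRIzol and sequenced, per the labels' protocols. The authors deposited 1 matrix of RPKM values and tables of log2 fold changes; per the submitters' processing notes the work used SAMtools, Cufflinks 2.2.1, DESeq2 and build mm9, and the role of each, the aligner and strand handling are not given in the sources used here. RPKM values are not counts, so no count test was run, and absolute depth is unknown (relative depth 1 to 1.82). AC113316.1 was the top gene in all 7 libraries, at 116631 to 463081 RPKM. Of the matrix columns, 15 were used and 15 were not.

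Values were turned into log2(RPKM + 1) and compared with limma 3.58.1 in R 4.3.3, with Benjamini-Hochberg adjustment over all tested genes, after testing the scripts on simulated data. A call needs an adjusted p under 0.05 and an absolute difference of at least 1; differences are on that log scale, which understates changes of low genes. Named genes were the FoxA genes, the 2 marker genes, the 12 highest and 12 lowest called genes (at 5 RPKM or more on average in whichever group was higher, no overlap, no small RNAs, clones or pseudogenes), for each list its called members (above 6, the 3 highest and 3 lowest; with none, the 2 largest differences) and the 4 highest and 4 lowest interaction genes also called here. Promoters of the FoxA genes are not shown, as no value bears on them. Members and lists were chosen with earlier results of these data known. Genes outside the rule are given as members of a list; Gh, Ly6e, Gm10680 and Alad were chosen after their values were seen. Promoter windows come from RefSeq, build GRCm38.p6, matched by symbol (7208 of 10846 tested genes). Alternatives covered the pseudocount, filter, scaling, fit, replicate block and leaving out each library; a clock covariate was added after the data were seen.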

Additional observations from a re-analysis of the deposited data

Results flagged for a closer look

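In the 4 Cre alfp libraries, 1 library stood apart from the other 3 for 4 of the 92 genes tested for this, and chance gives about 1 in 20. Cre alfp 4 was apart for Hspa8, at 143 RPKM, and for Ccrn4l, a clock-linked deadenylase, at 16.3 RPKM. Cre alfp 2 was apart for Mup3, at 8162 RPKM, and for Cyp2c70, at 143 RPKM.

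For 32 of 92 named genes the difference between Cre alfp and lox was not that between triple null and FoxA3 null, by the interaction test in limma, against 6.9% of all tested genes and 35.2% of the 182 called genes. Of the 92, 61 were called for Cre alfp against lox, 1 of the 2 differences compared. The named genes also include the 4 highest and 4 lowest interaction genes. Gh and Gm10680 were chosen after their values were seen. For these reasons the count is in part fixed by the choice of genes. Values below are the first difference less the second. The FoxA3-present difference was the higher in Mup9 (4.69), Cyp2b13 (2.97), Alas2 (1.75), Mup3 (3.37), C6 (1.53), Serpina3n (3.35), Aox3 (3.26), Ces1g (3.23), Sult3a1 (2.47), Vldlr (1.19), Slc40a1 (1.50), Aqp1 (2.35), Kdr (1.18), Apoa1 (4.33), Hao1 (4.17), 1500017E21Rik (4.47), Csrp3 (5.45) and Gh (2.71). It was the lower in Sult1e1 (-4.00), Enho (-3.78), Asns (-3.18), Adrb3 (-1.78), Hspa8 (-3.10), Creld2 (-3.57), Tsku (-3.88), Orm3 (-1.68), Ugt1a9 (-2.03), Oat (-1.70), Hyou1 (-1.52), Hsph1 (-1.87), Tspan33 (-1.58) and Gm10680 (-1.58). Enho and Asns had little room to fall from their FoxA3 null values, as given above. FoxA3 status, the route and the time of deletion cannot be told apart in these values.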

How the results depend on the processing

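The count of 182 called genes was 96 with no filter on low values, 117 at a mean RPKM of at least 5, 380 with no minimum difference, 274 in a fit on 15 libraries and 292 with library weights. Leaving out 1 library gave 77 to 233 calls. Other settings gave 122 to 220, and no named call changed direction. Of the named genes not called, 6 were called in the fit on 15 libraries, 3 with library weights and 2 each without lox 3 and without Cre alfp 4. The 6 included Nr1d1, Ccnd1, Cdkn2c and Ppp1r3b, from lists that held no call. Of the 61 called named genes (58 by rule, 3 chosen after their values were seen), 26 (23 by rule) kept the call under every setting that tested them (a mean RPKM of at least 5 left 50 of the 61 to test); 27 lost it with no filter on low values, where 23958 genes were tested. The replicate block gave 122 calls, 90 of them shared, and ended 26 named calls; libraries of the same number deviated together with r of -0.04, 0.12 and -0.20, so they share only a number; the highest r, 0.36, was between lox 3 and Cre alfp 4. With no filter, higher and lower calls were 2 and 2 in phase 1, 2 and 1 in phase 2, and 1 lower in coagulation and complement; under the block they were 6 and 5 in the Mup family, 2 and 3 in each drug list and 2 and 2 in acute phase. The 783 interaction calls became 1658 with no minimum difference and 774 with the replicate block, and were 631 to 886 without 1 library. The clock covariate, chosen after seeing the data, ended 9 named calls (Hspa8, Tsku, Mup3, C6, Vnn1, Ugt1a9, Pdia6, Trib3 and Slc40a1). The cause of these changes was not tested, and unknown depth leaves low genes without a counting error.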

Other observations

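Genes outside the lists also moved with close replicates. Ly6e, a surface protein of the Ly6 family, was at 35.6, 41.9 and 41.9 RPKM in lox and 135, 149.7, 162 and 147 in Cre alfp (difference 1.88, SE 0.11, adjusted p = 0.000344 by limma). Gm10680, a gene model, was at 49.1, 60.9 and 46.7 RPKM in lox and 373, 387, 439 and 333 in Cre alfp (difference 2.85, SE 0.14, adjusted p = 0.000192). For neither gene did the groups overlap. In FoxA3 null, Ly6e was at 89.7 to 132 RPKM, above every lox library and below every Cre alfp library. Gm10680 was there at 25.8 to 69.3 RPKM, a range that holds the lox values. By name, some of the 182 called genes were small RNA genes, gene models or pseudogenes.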
